A study of Mus musculus with 11 samples.

Results

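The genes described here encode the core proteins that make microRNAs and carry out their silencing. They are the Argonautes (Ago1, Ago2, Ago3 and Ago4), the GW182 proteins (Tnrc6a, Tnrc6b and Tnrc6c), the nucleases Drosha and Dicer1, and Dgcr8. They were chosen by gene symbol alone. The table held 9 of these 10 genes among its 31936 genes, and Dgcr8 was not analysed here. All 9 passed the filter on low values. Their transcripts were measured by RNA sequencing of bulk peritoneal macrophages from female mice, elicited with thioglycollate, an irritant that draws inflammatory macrophages into the abdominal cavity. The libraries fall into 5 that received a negative control (replicates 1, 2, 3, 4 and 6) and 6 that received a microRNA-150 mimic (replicates 1 to 6). The submitters left out 1 further sample because its RNA had been fragmented improperly. A mimic is a short synthetic RNA made to be loaded into Argonaute like the natural microRNA. The sources used here do not give strain, age, genotype, mimic dose or time of exposure. They also do not state whether replicates came from separate animals, so p-values describe the spread between these libraries, which may be technical.

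MicroRNAs are cut from long primary transcripts in the nucleus by Drosha together with its RNA-binding partner DGCR8. The hairpin is exported and cut again by Dicer, and 1 strand of the resulting duplex is loaded into an Argonaute protein. Argonaute uses that strand to find target mRNAs, and GW182 proteins bound to Argonaute recruit deadenylases and decapping factors that silence them. Ago2 is the Argonaute known for efficient cleavage of fully paired targets. A mimic enters the pathway after the Drosha and Dicer steps and occupies the same Argonautes as the cell's own microRNAs.

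Recovered reads per library ran from 18538509 to 25473814. The labelled cell type showed in its markers: all 8 macrophage genes, Lyz2, Cd68 and Csf1r among them, passed the filter and summed to between 16310 and 20403 CPM (reads scaled to library size). Markers of T and NK cells summed to at most 0.591 CPM and those of B cells to at most 1.28 CPM, with no marker of either list reaching the filter. Mesothelial and endothelial markers summed to between 3.30 and 6.35 CPM. In the list of eosinophil and mast cell markers, only Siglecf was above the filter, with a mean log2 CPM of 5.11 in controls and 4.80 with the mimic, while the other genes of the list had 2 to 16 reads each over all controls and 3 to 26 over all mimic libraries. Its part in the results was not tested. Libraries differed in how strongly their reads favoured long transcripts. The slope of log2 CPM on transcript length, relative to each gene's mean, was between -0.0496 and -0.0236 log2 units per doubling of length in the 5 controls. In mimic replicates 3, 4 and 6 it was 0.0584, 0.0888 and 0.0717, and in mimic replicates 1, 2 and 5 it was -0.063, 0.0167 and -0.00234. Since most of the members have long transcripts, the members' fold changes are set beside those of a fit corrected for length and of a fit without those 3 libraries.

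Every member was expressed, and the level per length set Ago2 and Tnrc6a at the top. In controls Ago2 measured 11.2 ± 0.91 (SD, n = 5) CPM per kilobase of its longest annotated transcript (RPKM), and Tnrc6a 9.86 ± 0.56. Dicer1 followed at 7.08 ± 0.34, Ago1 at 6.96 ± 0.14 and Ago4 at 6.20 ± 0.25. The lowest were Tnrc6b at 3.75 ± 0.10, Tnrc6c at 3.62 ± 0.27, Ago3 at 3.51 ± 0.18 and Drosha at 3.35 ± 0.14. Neighbours overlapped between libraries for Ago2 and Tnrc6a, for Dicer1 and Ago1, and among the last 4 genes. Ago1 and Ago4 did not overlap. With the mimic the first place went to Tnrc6a at 11.2 ± 1.47 (SD, n = 6), against 10.1 ± 0.78 for Ago2, and their ranges again overlapped. The order depends on which exons are counted. Over the union of all annotated exons, Ago2 in controls stayed at 11.0 RPKM but Tnrc6a came to 6.35, Ago1 to 6.19 and Dicer1 to 4.16. By that measure Ago2 also stayed above Tnrc6a with the mimic, at 9.91 against 7.23, and their ranges did not overlap.

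**Figure D1:**
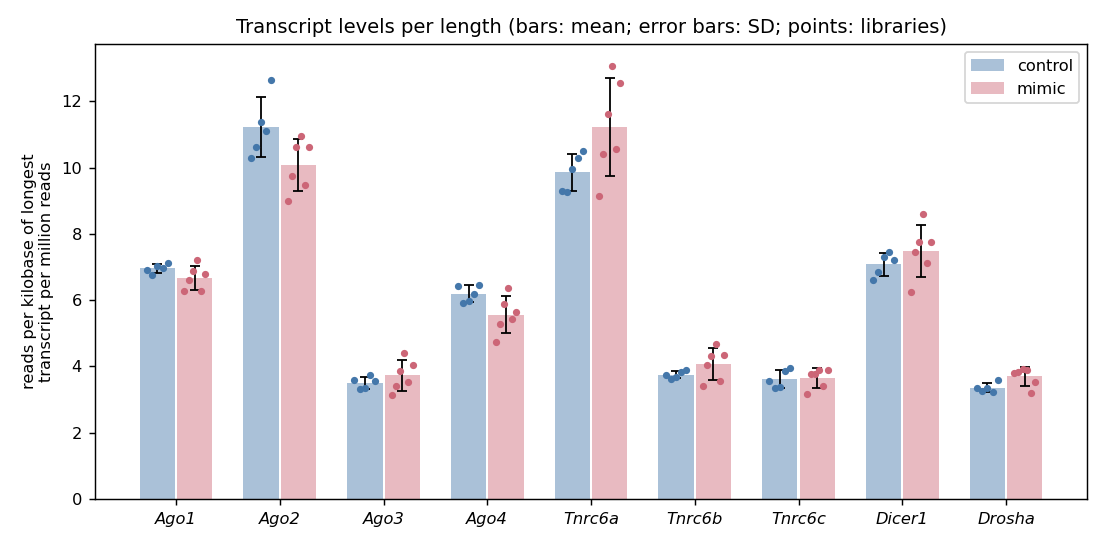
Transcript level of each member in CPM per kilobase of its longest annotated transcript (RPKM, vertical axis), for control and mimic libraries; bars are means, error bars SD and points single libraries. Ago2 and Tnrc6a are highest in both groups, and Tnrc6b, Tnrc6c, Ago3 and Drosha form the lowest group, with means of 3.35 to 4.06.

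With the mimic, core genes of the pathway stayed near their control levels. Of the 9 members, Tnrc6a rose and Ago2 fell past the threshold (limma, Benjamini-Hochberg adjusted p below 0.05), and the other 7 did not pass. Over all 12969 genes tested, 30% passed, 15.4% as higher and 14.6% as lower, so 2 of 9 is a share near the background. Upper-quartile scaling moved that balance to 1483 higher and 2470 lower genes in place of 1997 and 1895, and gave 0 members higher and 2 lower. Scaling by library total called 0 of the 9 members, against 1597 higher and 2126 lower of the 12969 genes tested. No member changed by more than 0.19 on the log2 scale. The median absolute log2 fold change was 0.12 for the members and 0.14 for all genes tested. None of the 9 separated the groups completely, and 14.9% of all genes tested did. With only 9 members these shares cannot be told apart. In the authors' deposited table none of the 9 has an adjusted p below 0.05, against 9.2% of all its 31936 genes. That share includes genes below the filter used here, so it is not comparable with the shares over 12969 genes. Bulk libraries cannot tell fewer cells of a type from less RNA per cell.

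Among the Argonautes, Ago2 fell, Ago4 lay just short of the threshold in the same direction, and neither Ago1 nor Ago3 passed. Ago2, the slicer (ENSMUSG00000036698, chromosome 15, 73095844 to 73184935, GRCm38), had log2 CPM of 7.16, 7.21, 7.30, 7.23 and 7.42 in control replicates 1, 2, 3, 4 and 6. With the mimic the lowest, median and highest values were 7.00, 7.13 and 7.21. Control replicate 6 was the highest of all, and 3 of 6 mimic libraries lay below every control, so the groups overlapped. These values rest on 15762 reads in controls and 19606 with the mimic. Ago2 fell by 0.15 ± 0.053 (SE) on the log2 scale, 1.11-fold (95% interval -0.26 to -0.034; limma adjusted p = 0.0468). A two-sided exact permutation test of this gene alone gave p = 0.039. The call stood at the threshold: it was lost, for example, without control replicate 6 (-0.11, limma adjusted p = 0.138) or mimic replicate 1 (-0.12, limma adjusted p = 0.0619). It also went without control replicate 2, 3 or 4 or mimic replicate 2 or 5 (limma adjusted p from 0.0599 to 0.0995). It grew after correction for transcript length (-0.23, limma adjusted p = 0.00114) and without mimic replicates 3, 4 and 6 (-0.22, limma adjusted p = 0.00198). The authors' deposited table gives Ago2 a log2 fold change of -0.14, with limits of -0.24 and -0.040 and an adjusted p of 0.0751.

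Ago4, an Argonaute regarded as lacking slicer activity (ENSMUSG00000042500, chromosome 4, 126489541 to 126533472), measured 5.41, 5.28, 5.29, 5.31 and 5.38 log2 CPM in the controls. The mimic libraries ran from 4.99 through a median of 5.19 to 5.34. Apart from mimic replicate 4, every mimic library lay below every control, 5 of 6 in all. The difference of -0.15 ± 0.057 (SE) missed the threshold by a small margin (95% interval -0.27 to -0.033; limma adjusted p = 0.0514; exact permutation p = 0.0281). It passed without mimic replicate 3 (-0.17, limma adjusted p = 0.0492) or 4 (-0.18, limma adjusted p = 0.0216). It passed more clearly after the length correction (-0.22, limma adjusted p = 0.00226) and without mimic replicates 3, 4 and 6 (-0.24, limma adjusted p = 0.00112).

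Ago1, the Argonaute gene that lies between Ago3 and Ago4 (ENSMUSG00000041530, chromosome 4, 126435012 to 126468583), varied least. Its controls spanned 5.62 to 5.67 log2 CPM and its mimic libraries 5.54 to 5.66, with 4 of 6 below every control. The difference was -0.053 ± 0.039 (SE; 95% interval -0.14 to 0.030; limma adjusted p = 0.319), and it passed the threshold only after correction for length (-0.12, limma adjusted p = 0.0184). Without mimic replicates 3, 4 and 6 it was -0.095 (limma adjusted p = 0.124). Ago3 (ENSMUSG00000028842, chromosome 4, 126331704 to 126429556) measured 5.82, 5.70, 5.71, 5.84 and 5.77 in controls. With the mimic it ran from 5.65 in replicate 1 to 6.06 in replicate 4, with a median of 5.87, so that 3 libraries lay above every control and 1 below. Its difference was 0.089 ± 0.065 (SE; 95% interval -0.048 to 0.23; limma adjusted p = 0.31). The 3 libraries above every control were replicates 3, 4 and 6, those with the strongest preference for long transcripts. Corrected for length, the Ago3 difference was 0.0031, and without these 3 libraries it was -0.037 (limma adjusted p of 0.96 and 0.67).

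**Figure D2:**
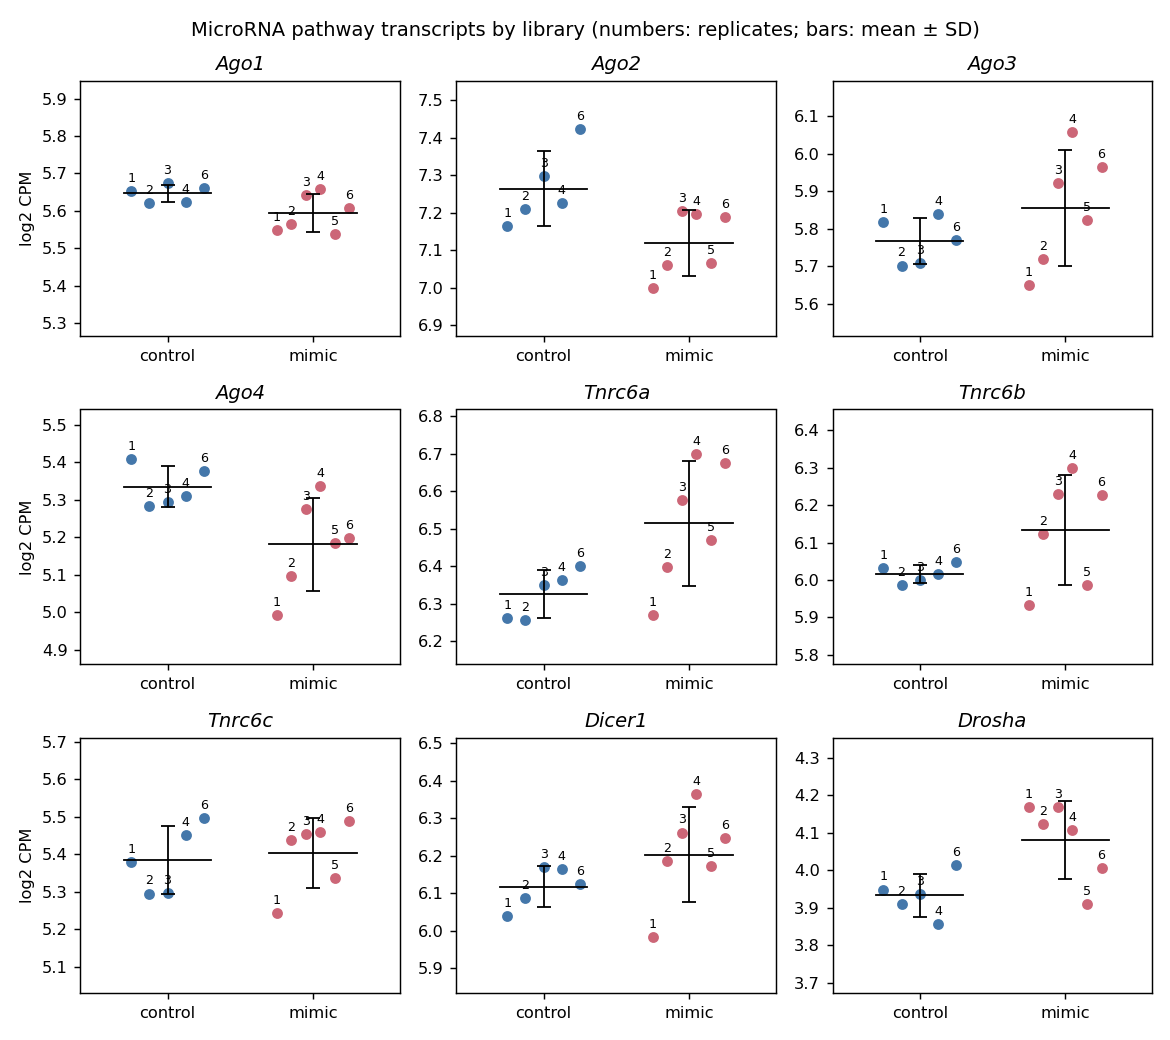
Log2 CPM of each member in every library; numbers are replicate numbers, horizontal lines means and bars SD, and all panels span the same range of log2 units. The groups overlap in all 9 panels, with Ago2 and Ago4 mostly lower and Tnrc6a mostly higher in mimic libraries.

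Compared within each library, the Argonaute transcripts did shift against each other. The difference in log2 CPM between 2 members cancels scaling and was tested for 10 pairs, 6 of them Argonaute pairs, with two-sided exact permutation tests over the 462 ways to assign the group labels. Ago3 minus Ago4 was 0.41, 0.42, 0.41, 0.53 and 0.39 in controls 1, 2, 3, 4 and 6. With the mimic it was between 0.62 and 0.77, above every control in 6 of 6 libraries. The ratio of Ago3 to Ago4 was thus 1.18-fold higher, a difference of 0.24 from 0.43 ± 0.055 (SD, n = 5) to 0.68 ± 0.056 (SD, n = 6). Its exact permutation p was 0.00216, the smallest that this design allows, or 0.0216 adjusted over the 10 pairs. How often pairs of other genes separate the groups was not counted, so whether this shift is particular to Argonautes was not tested. Of single genes tested, 14.9% separated the groups. Ago2 minus Ago3 went from 1.50 ± 0.13 to 1.26 ± 0.080, so Ago3 was higher relative to Ago2 as well. The difference was -0.23, with 5 of 6 mimic libraries below every control (exact permutation p = 0.00433, adjusted 0.0216). Both of these pairs contain Ago3, so they are not independent results.

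The Ago3 to Ago4 shift was 0.22 after the length correction and 0.21 without mimic replicates 3, 4 and 6, and ranged from 0.22 to 0.27 with 1 library left out. The adjusted exact permutation p was above 0.05 in 5 of these 11 cases, at 0.0529 without mimic replicate 2 and 0.0794 without mimic replicate 3, 4, 5 or 6. Without mimic replicates 3, 4 and 6 together it was 0.179. In all 11 cases the groups did not overlap and the unadjusted exact permutation p was the smallest possible, 0.00794 with 1 mimic library fewer. It was also the smallest possible without mimic replicates 3, 4 and 6 (exact permutation p = 0.0179). These adjusted values follow from the number of libraries and the other pairs, so they cannot show whether the shift weakened. Ago2 minus Ago3 was -0.23 after correction for length, where both transcripts are of similar length (13800 and 15595 nt), and -0.19 without those 3 libraries (exact permutation p = 0.0714, adjusted 0.223). Its adjusted p was also above 0.05 without control replicate 6 (-0.20, 0.0714) or without mimic replicate 2 (-0.25, 0.0529), 3, 4, 5 or 6 (-0.24, -0.21, -0.23 and -0.23, each 0.0794). Ago2 minus Ago4 differed by 0.0088 between the groups (exact permutation p = 0.881). The remaining Argonaute pairs reached exact permutation p of 0.0433 to 0.0455 before and 0.0758 after adjustment, and of these Ago1 minus Ago2 passed after the length correction (0.10, adjusted 0.0144). As a share of the summed Argonaute RPKM, Ago3 went from 12.6% ± 0.65 (SD) in the 5 controls to 14.3% ± 0.68 in the 6 mimic libraries. Ago2 held 40.2% ± 1.72 and 38.7% ± 0.51, Ago4 22.2% ± 0.83 and 21.3% ± 0.64, and Ago1 24.98% ± 0.64 and 25.7% ± 0.90. The sum itself was 27.9 ± 1.20 RPKM in controls and 26.0 ± 2.11 with the mimic, ranges that overlap.

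**Figure D3:**
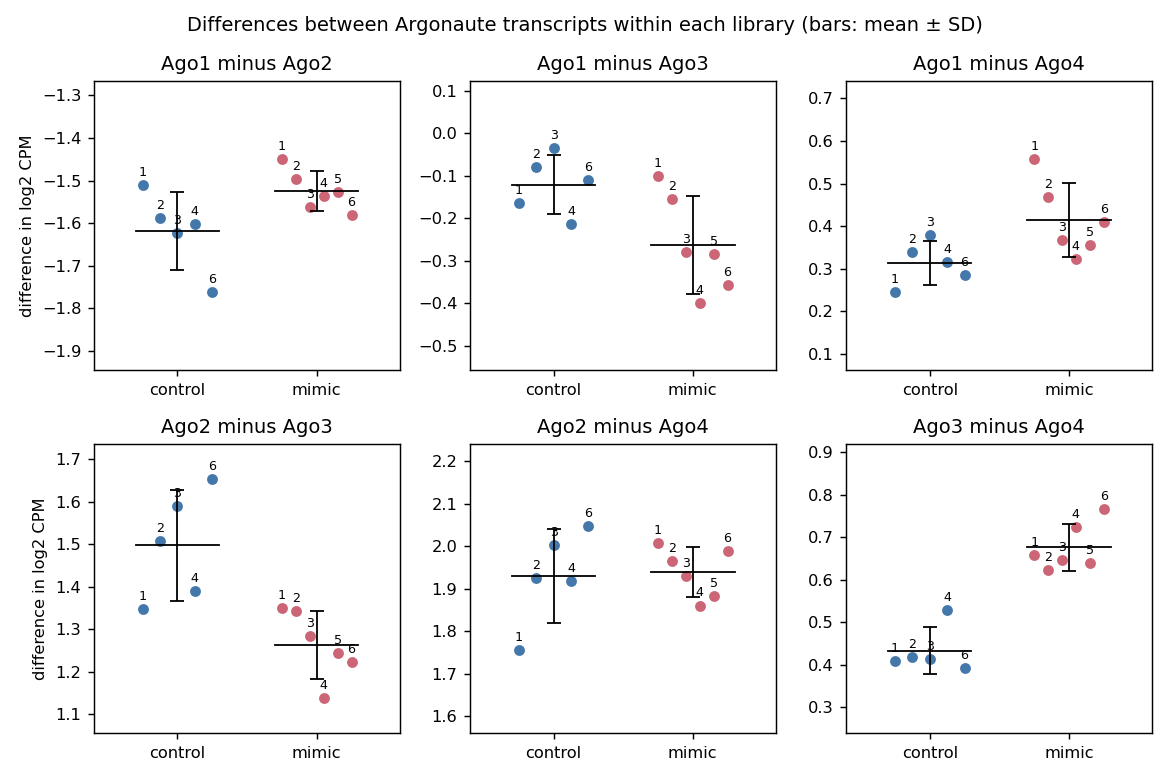
Difference in log2 CPM between 2 Argonaute transcripts within each library, for the 6 pairs; numbers are replicate numbers, lines means and bars SD. Ago3 minus Ago4 is the pair whose groups do not overlap, with controls up to 0.53 and mimic libraries from 0.62.

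Ago3, Ago1 and Ago4 are neighbours on the minus strand of chromosome 4, and the sequences before the Ago3 and Ago4 start sites are shown because these 2 neighbours shifted against each other. Tnrc6a is added as the member that rose. Each run covers the 250 bases upstream of a RefSeq start site (GRCm38.p6), written along the gene's strand, with every CG dinucleotide in capitals. They lie at chr4:126429543-126429792 for Ago3, chr4:126533459-126533708 for Ago4 and chr7:123123635-123123884 on the plus strand for Tnrc6a.
Ago3: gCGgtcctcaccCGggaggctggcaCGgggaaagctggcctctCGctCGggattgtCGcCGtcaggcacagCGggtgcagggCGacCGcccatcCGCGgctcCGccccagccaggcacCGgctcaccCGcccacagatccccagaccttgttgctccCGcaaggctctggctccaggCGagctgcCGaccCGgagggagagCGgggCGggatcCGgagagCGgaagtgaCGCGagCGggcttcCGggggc
Ago4: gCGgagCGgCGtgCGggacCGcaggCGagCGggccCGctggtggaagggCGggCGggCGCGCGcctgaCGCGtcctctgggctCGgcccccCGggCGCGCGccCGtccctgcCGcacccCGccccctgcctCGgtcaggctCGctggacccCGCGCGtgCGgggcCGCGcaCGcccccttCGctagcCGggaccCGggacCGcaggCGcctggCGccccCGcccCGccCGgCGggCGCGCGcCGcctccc
Tnrc6a: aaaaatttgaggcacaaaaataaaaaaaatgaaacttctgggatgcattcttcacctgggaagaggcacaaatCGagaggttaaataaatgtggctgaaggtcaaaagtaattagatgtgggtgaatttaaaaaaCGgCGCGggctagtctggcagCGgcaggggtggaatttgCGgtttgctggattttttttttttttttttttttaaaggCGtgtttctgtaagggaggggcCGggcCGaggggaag

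The Ago4 window is 85.6% G+C with 46 CG dinucleotides, against 73.6% and 27 for Ago3. Tnrc6a has 42.4% and 9, nearer to the medians of 52.4% and 6 over 32851 upstream windows of the same length. RefSeq windows were matched for 8 of the 9 members, 10 windows in all. The member without a window is Ago2, so nothing is said here about its upstream sequence. The motif GAAANNGAAA, a core of the element bound by interferon-activated factors, was searched on both strands. It occurred in 0 of these 10 windows and in 2.98% of all windows. That says only that these letters are not in those 250 bases.

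Of the GW182 genes, Tnrc6a rose just past the threshold and the other two did not pass. Tnrc6a (ENSMUSG00000052707, chromosome 7, 123123885 to 123195296), the scaffold first described in GW bodies, measured 6.26, 6.26, 6.35, 6.36 and 6.40 log2 CPM in controls. Mimic libraries ran from 6.27 through a median of 6.52 to 6.70. Replicates 3, 4, 5 and 6 lay above every control, and replicates 1 and 2 among the controls. Tnrc6a rose by 0.19 ± 0.067 (SE) on the log2 scale, 1.14-fold (95% interval 0.045 to 0.33; limma adjusted p = 0.0447; exact permutation p = 0.0498). That rise moved with the libraries that favour long transcripts. It was 0.11 after the length correction (limma adjusted p = 0.0636) and 0.053 without mimic replicates 3, 4 and 6 (limma adjusted p = 0.492). With 1 library left out it stayed past the threshold only without mimic replicate 1 (0.24, limma adjusted p = 0.00242) or 2 (0.21, limma adjusted p = 0.033). Leaving out any control or mimic replicate 3, 4, 5 or 6 gave 0.15 to 0.21 (limma adjusted p from 0.0518 to 0.105). The authors' deposited table gives 0.20 with an adjusted p of 0.0661.

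Tnrc6b (ENSMUSG00000047888, chromosome 15, 80711313 to 80941085) has the longest annotated transcript of the members, 17332 nt. Its controls were tight, from 5.99 to 6.05 log2 CPM, while mimic libraries spread from 5.93 to 6.30, with 4 above and 2 below all controls. The difference was 0.12 ± 0.060 (SE; 95% interval -0.010 to 0.24; limma adjusted p = 0.149). It passed without mimic replicate 1 (0.16, limma adjusted p = 0.022). It was 0.029 after the length correction (limma adjusted p = 0.56) and -0.0032 without mimic replicates 3, 4 and 6 (limma adjusted p = 0.973). Tnrc6c (ENSMUSG00000025571, chromosome 11, 117654289 to 117763439) spanned 5.29 to 5.50 in controls and 5.24 to 5.49 with the mimic. Its difference of 0.019 ± 0.054 (SE) had a 95% interval of -0.096 to 0.13 (limma adjusted p = 0.815). The largest within-library contrast of this family, Tnrc6a minus Tnrc6c, was 0.94 ± 0.069 in controls and 1.11 ± 0.10 with the mimic (exact permutation p = 0.0216, adjusted over the 10 pairs 0.0722). That difference of 0.17 was also 0.17 after the length correction (adjusted exact permutation p = 0.0505) and 0.098 without mimic replicates 3, 4 and 6 (adjusted exact permutation p = 0.321).

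Of the nucleases, Drosha was the nearer to the threshold. Drosha (ENSMUSG00000022191, chromosome 15, 12824815 to 12935291), which makes the first cut, was at 3.95, 3.91, 3.94, 3.86 and 4.01 log2 CPM in controls, from 1564 reads in all, the fewest of the members. In mimic libraries it ran from 3.91 through 4.12 to 4.17, with replicates 1, 2, 3 and 4 above every control. The difference of 0.15 ± 0.058 (SE; 95% interval 0.024 to 0.27) did not pass (limma adjusted p = 0.0654; exact permutation p = 0.0346). Unlike the GW182 genes, Drosha was no higher in replicates 4 and 6 than in replicate 1, the mimic library with the lowest length slope. Its difference was 0.10 after correction for length and 0.13 without mimic replicates 3, 4 and 6 (limma adjusted p of 0.211 and 0.203). Without mimic replicate 5 it passed (0.18, limma adjusted p = 0.0237). Dicer1 (ENSMUSG00000041415, chromosome 12, 104687742 to 104751952), which makes the second cut, spanned 6.04 to 6.17 in controls and 5.98 to 6.36 with the mimic, where 5 of 6 libraries were above every control and replicate 1 below. The difference was 0.085 ± 0.056 (SE; 95% interval -0.034 to 0.20; limma adjusted p = 0.261). It passed without mimic replicate 1 (0.13, limma adjusted p = 0.0304). It was 0.0045 after the length correction (limma adjusted p = 0.938) and -0.0028 without mimic replicates 3, 4 and 6 (limma adjusted p = 0.977). Drosha minus Dicer1 did not differ between the groups beyond the spread (0.062, exact permutation p = 0.548).

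**Figure D4:**
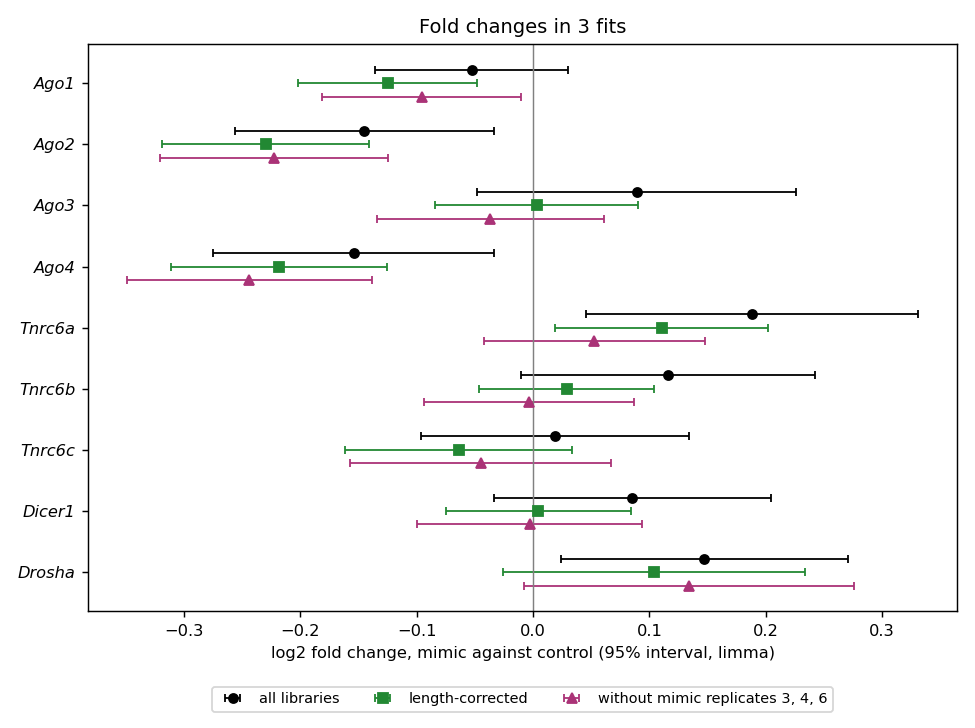
Log2 fold change of each member with its 95% interval in 3 limma fits: all libraries, values corrected for transcript length, and without mimic replicates 3, 4 and 6. Ago2 and Ago4 move further below 0 in the other 2 fits, and Ago3, Tnrc6a, Tnrc6b and Dicer1 move towards or across 0.

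Set against genes of similar length, Ago2 and Ago4 lay well below their class. The median log2 fold change of all genes tested went from -0.17 below 1000 nt to 0.084 at 8000 to 12000 nt and 0.13 at 12000 nt or more. Tnrc6b at 0.12, Ago3 at 0.089 and Dicer1 at 0.085 were close to the median of their length class. Ago2, with a 13800 nt transcript, was at -0.15 in a class of 135 genes of which 4.44% were called lower and 22.2% higher. Ago4, at 6537 nt, was at -0.15 in a class whose median was 0.074. After the correction for length 0 members were higher and 3 lower (Ago1, Ago2 and Ago4), where 29.5% of all genes were called in either direction. Without mimic replicates 3, 4 and 6, 0 were higher and 2 lower (Ago2 and Ago4), where 16.2% of all genes were called.

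**Figure D5:**
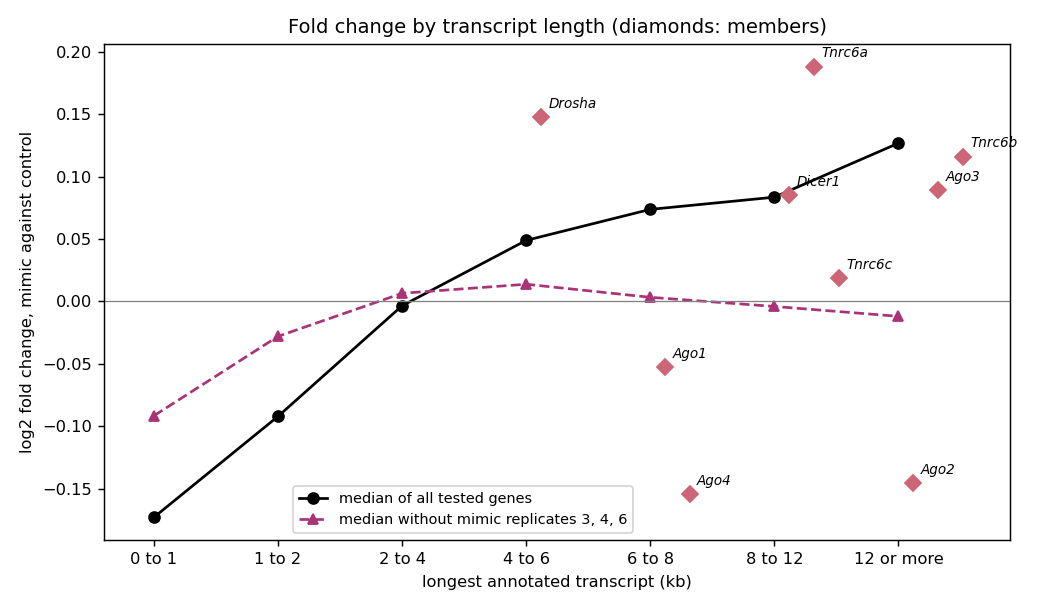
Median log2 fold change of all tested genes by length of the longest annotated transcript (circles), the same without mimic replicates 3, 4 and 6 (triangles), and the 9 members (diamonds, placed in their length class). The medians climb from -0.17 to 0.13, Dicer1, Ago3 and Tnrc6b sit near the line, and Ago1, Ago2 and Ago4 lie below it.

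Several partners of the pathway differed by more than any core member. In a list of 22 genes that assist microRNA processing, 20 were tested, 9 rose and 3 fell, against 30% of all genes called in either direction, with a median log2 fold change of 0.13 against 0.00071 for all genes tested. Adar, the editor of double-stranded RNA and an interferon-inducible gene, rose by 0.70 ± 0.046 (SE), from a log2 CPM of 6.64 ± 0.10 (SD, n = 5) to 7.34 ± 0.040 (SD, n = 6). Zcchc6, which adds uridines to precursor microRNAs, rose by 0.35 ± 0.060, the paraspeckle protein gene Nono by 0.25 ± 0.044 and Tardbp, encoding TDP-43, by 0.26 ± 0.074, with limma adjusted p no higher than 0.0154 among them. Hnrnpa2b1 also rose, by 0.29 ± 0.095 (limma adjusted p = 0.0361), though not with upper-quartile scaling (0.25, limma adjusted p = 0.0525) or the length correction (0.26, limma adjusted p = 0.0553), while the Drosha cofactor Ddx5 measured 0.12 (limma adjusted p = 0.0684). The 12 calls became 4 (all higher) without mimic replicates 3, 4 and 6, where 16.2% of all genes were called. There Adar was at 0.73, Zcchc6 at 0.23 and Nono at 0.18 (limma adjusted p up to 0.000997) but Tardbp at 0.11 and Hnrnpa2b1 at 0.076 no longer passed (limma adjusted p of 0.13 and 0.318). The list had 7 calls without control replicate 1, 3 or 4 or mimic replicate 4 or 6, and 5 higher and 4 lower with upper-quartile scaling.

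Of 20 genes for the loading and turnover of Argonaute complexes, 19 were tested, 7 rose and 1 fell (median 0.024), where 15.4% of all genes tested were higher and 14.6% lower. Mov10, an RNA helicase found with Argonautes and an interferon-inducible gene, rose by 0.71 ± 0.064 (SE), from 4.40 ± 0.047 (SD, n = 5) to 5.12 ± 0.15 (SD, n = 6) log2 CPM. The nuclear exonuclease gene Xrn2 rose by 0.39 ± 0.058 and Stip1, a cochaperone that links HSP70 to HSP90, by 0.23 ± 0.046, while Fkbp4, another HSP90 cochaperone, fell by 0.19 ± 0.045, with limma adjusted p no higher than 0.00521 among them. The chaperones Hsp90ab1 and Hspa8, the most abundant of the list, measured 0.043 and 0.024 (limma adjusted p of 0.484 and 0.64), and of these 2 values the first turned to -0.022 without mimic replicates 3, 4 and 6 and the second to -0.0078 with upper-quartile scaling. Without mimic replicates 3, 4 and 6 the count was 3 higher and 1 lower, where 16.2% of all genes were called, with Mov10 at 0.82. It was also 3 and 1 without control replicate 4 or 6 or mimic replicate 3, 4 or 6, 4 and 1 without control replicate 1 or 2, and 4 and 2 with upper-quartile scaling.

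Of 26 effectors that act downstream of GW182 proteins, all 26 were tested, 4 rose and 2 fell (median -0.00075), where 30% of all genes were called. The decapping enzyme gene Dcp2 rose by 0.54 ± 0.068 (SE), the exonuclease gene Xrn1 by 0.44 ± 0.081 and the deadenylase gene Cnot7 by 0.19 ± 0.051, while Btg2, a cofactor of deadenylation, fell by 0.23 ± 0.050, with limma adjusted p no higher than 0.0127 among them. Without mimic replicates 3, 4 and 6 Cnot7 did not pass (0.13, limma adjusted p = 0.0913), and with upper-quartile scaling the list had 3 higher and 3 lower. Cnot1, the scaffold of the deadenylase complex, measured 0.14 (limma adjusted p = 0.0588) and the helicase gene Ddx6 -0.017 (limma adjusted p = 0.9). The germline Argonaute relatives were near the floor: Piwil1 had 3 reads in controls and 8 with the mimic. Piwil2 had 188 and 238, and Piwil4 36 and 92. Piwil4 passed as higher, but its mean log2 CPM was -1.48 in controls, below the filter of -1, and -0.59 with the mimic. It may therefore have entered the test only through the mimic libraries. The call was lost without control replicate 1, 2 or 3, without mimic replicate 2 or 3, and without mimic replicates 3, 4 and 6.

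Correlations across the 11 libraries were higher among some members than others, given as a description because libraries share depth, length preference and group. Tnrc6a went with Dicer1 (r = 0.90), Tnrc6b (0.89) and Ago3 (0.88), and Ago4 with Ago1 (0.85) and Ago2 (0.77), while Ago2 and Tnrc6a had an r of 0.088. Tnrc6c had r of 0.72 for Tnrc6b, 0.68 for Ago3, 0.64 for Tnrc6a and 0.63 for Dicer1. Its r was lower for Ago2 (0.44), Ago4 (0.41), Ago1 (0.34) and Drosha (0.11). Drosha had r from -0.46 for Ago4 to 0.46 for Tnrc6b. Over all genes tested, the patterns most like Ago2 were Tle3 (r = 0.94), Epas1 (0.93) and Rreb1 (0.92). Those most like Tnrc6a were Ints2, Rbbp6 and Neat1 (each 0.98), and those most like Dicer1 were Elk4 (0.97), Syne2 (0.94) and Vps13d (0.93).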

How the data were processed

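The authors deposited 1 table of 32265 rows for 31936 Ensembl genes, and the first row per gene was used. The tools named per the submitters' processing notes are edgeR, featureCounts, STAR and Subread. For versions, genome build, annotation and strand setting the sources used here give nothing. In the deposited table each library has a log2 CPM column. From the values, each entry is the log2 of a whole read number plus 0.5 over a scaled total, and whole reads were recovered for 100% of values within 0.01 read. Deposited log2 fold changes and p-values were copied as the authors' own, and the deposited score columns were not used.

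The filter kept 12969 genes, those reaching a log2 CPM of -1 in 5 or more libraries. Group models were fitted with limma 3.58.1 (R 4.3.3, statmod 1.5.0) with trend and robust settings and Benjamini-Hochberg adjustment over all of them. Ratios of 2 members were tested by two-sided exact permutation. Without Dgcr8, 10 of the planned pairs remained. The fit was tested on simulated data with known changes, 33 or 34 genes at each size. It recovered 6.1% of changes of -0.2 log2 units and 12.1% of changes of 0.2. For changes of -0.5 and 0.5 it recovered 67.6% and 72.7%. In the data 3892 of 12969 genes were called, and the adjusted p depends on how many genes change. These recovery rates therefore cannot say how small a change in a member would be missed. The 95% intervals of Ago3, Tnrc6b, Dicer1 and Drosha included 0.2, and that of Ago4 included -0.2. Those of Ago1 (-0.14 to 0.030) and Tnrc6c (-0.096 to 0.13) included neither value. Transcript lengths and coordinates are from GENCODE M21 (GRCm38), with the longest transcript per gene and a lowess of span 0.3 per library for the correction. Whether that is the authors' build is not known. Upstream sequences are from RefSeq (GRCm38.p6). The planned search for miR-150 sites is not reported here. Tables and figures were made with matplotlib 3.10.9, numpy 2.4.6 and pandas 2.3.3.

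All members, the 20 to 26 genes of each partner list, the tests and the alternatives were chosen with earlier results of these data known. Named were all members. In each partner list the 4 called genes with the smallest p and the 2 with the highest mean level were named. For likeness, the 3 genes with the highest r to the most abundant member of each role were named. The union of exons as a gene's length was added after the data were seen.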

Additional observations from a re-analysis of the deposited data

Results flagged for a closer look

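In the controls, Ago3 minus Ago4 was 0.53 in replicate 4, apart from the other 4 controls at 0.39 to 0.42. The gap was 0.814 of the range of the 5 values. Chance sets off this test in about 1 of 20 groups, and 38 groups were tested here. Without control replicate 4 the difference between mimic and control was 0.27 in place of 0.24.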

How the results depend on the processing

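The labels do not say whether equal replicate numbers mark a pair. Centred within each group, same-numbered libraries had correlations of -0.0606 to 0.0623, and 1 of 5 controls matched its own number best. These correlations cannot settle whether the libraries were paired, because length preference also varied between mimic libraries. The replicate block also takes out mimic replicate 5, which shares its number with no control. With the block 3568 genes were called, against 3921 without that library and no block. Drosha passed in both (0.18, limma adjusted p = 0.0498 with the block and 0.0237 without), and with the block no other member's call differed from that over all libraries. Without that library and no block, Ago2 and Tnrc6a did not pass (limma adjusted p of 0.081 and 0.0518). With the block 0 pairs passed, since the smallest p of that test is 0.0625.

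With mimic replicates 3, 4 and 6 left out together, 2100 genes were called. In that setting 0 pairs passed, though Ago3 minus Ago4 was at the smallest exact permutation p possible there (0.0179, adjusted 0.179). The values were then -0.24 for Ago4, 0.053 for Tnrc6a, -0.037 for Ago3, -0.0032 for Tnrc6b, -0.045 for Tnrc6c and -0.0028 for Dicer1, and the calls were 4 in each of the processing and loading lists. After the length correction they were -0.12 for Ago1, -0.22 for Ago4, 0.11 for Tnrc6a and -0.064 for Tnrc6c, with Ago2 minus Ago4 at -0.011. Scaling by library total lost Ago2 (-0.15, limma adjusted p = 0.0654) and Tnrc6a (0.18, 0.092) and left 5 loading genes. Upper-quartile scaling lost Tnrc6a (0.16, 0.0838), gained Ago4 (-0.19, 0.0217) and put Tnrc6c at -0.014. Median-of-ratios scaling (-0.16) and a filter on mean log2 CPM of at least 0 (-0.15) gained Ago4. Without trend and robust settings Ago2 (-0.15, 0.0878) and Tnrc6a (0.19, 0.0916) were lost, with 4 loading genes. Voom with sample weights called 5629 genes in place of 3892, lost Ago2 (-0.11, 0.0732), gained Tnrc6b (0.15), Dicer1 (0.11) and Drosha (0.16), and called 10 effectors. Without a filter 7 processing genes were called. The cause of these changes was not tested.

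With each library left out in turn, genes called ranged from 2908 to 5199. Fold changes ranged from -0.066 to -0.042 for Ago1, -0.17 to -0.11 for Ago2, 0.049 to 0.13 for Ago3, -0.18 to -0.12 for Ago4, 0.15 to 0.24 for Tnrc6a, 0.083 to 0.16 for Tnrc6b, -0.0036 to 0.051 for Tnrc6c, 0.053 to 0.13 for Dicer1 and 0.13 to 0.18 for Drosha. Pairs passing ranged from 0 to 3, and calls from 7 to 14 for processing, 4 to 8 for loading and 5 to 8 for effectors. Ago2 minus Ago4 ranged from -0.035 to 0.038.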
